A study of Rattus norvegicus with 6 samples.

Results

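The genes described here are the matrix metalloproteases (MMPs), the ADAM and ADAMTS metalloproteases, and the tissue inhibitors of metalloproteases (TIMPs) of the rat heart. They were taken as the transcripts whose gene symbol on the array platform is Mmp, Timp, Adam or Adamts followed by a number, which gave 54 of 15037 named genes, each with 1 row of values. Of these, 21 are Mmp genes, 4 are Timp genes, 19 are Adam genes and 10 are Adamts genes. The 3 rows named Adamtsl, for ADAMTS-like proteins without a protease domain, did not meet the rule. RNA of whole hearts from male Sprague-Dawley rats, 10 weeks old, was hybridised to 6 single-channel Clariom S Rat arrays, 2 for each of 3 groups. TAC-R hearts had been released from transverse aortic constriction, TAC hearts were under that constriction, which is a silk tie around the aortic arch that loads the left ventricle, and normal hearts were the controls. The surgical protocol describes control rats that were operated on without tying the aorta, but the labels call the control hearts normal or healthy and do not say which they were, and no label gives the time under constriction or after release. The field for RNA extraction names cultured fibroblasts, whereas all other labels name whole hearts, and the 8 measured heart muscle markers were above background on all 6 arrays. Nothing ties the paired arrays of a group to separate rats. The tests therefore rest on array-to-array spread that may be technical.

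MMPs are zinc proteases that cut collagens, gelatin and other matrix proteins. Most are secreted as inactive zymogens, while the membrane-type MMPs sit on the cell surface, where Mmp14 activates pro-Mmp2 in a complex with Timp2. ADAMs are membrane-bound and shed the outer parts of receptors, cytokines and growth factors, and ADAMTS proteases are secreted and cut proteoglycans, procollagens and other matrix proteins. TIMPs bind the active site of these enzymes, and the balance between proteases and TIMPs is a classic theme of the remodelling of the loaded heart. The arrays measure transcripts and not the activation of the proteins.

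Most of these genes lay below the background floor used here. The values are log2 signals, and the floor is the 95th percentile of the 1153 negative control rows of each array, which lay between 8.09 and 8.55. Of the 54 genes, 43 lay below the floor on all 6 arrays, with values from 2.21 to 7.90. Another 10 lay above it on all 6 arrays, namely Mmp2, Mmp15, Timp2, Timp3, Timp4, Adam9, Adam10, Adam17, Adam19 and Adamts12. Adamts1 was above it on 4 arrays. Of all tested rows, between 23.4% and 27.5% were above the floor on an array, so most rows lay below it too. The count depends on the floor: 11 genes were above it in at least 1 group, against 4 with the 99th percentile (Mmp15, Timp2, Timp3 and Adam19) and 33 with the median of the negative controls. For the 43 genes below the floor the size of a difference is not measured, and signals of different genes are not compared with each other because each has its own probes.

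**Figure D1:**
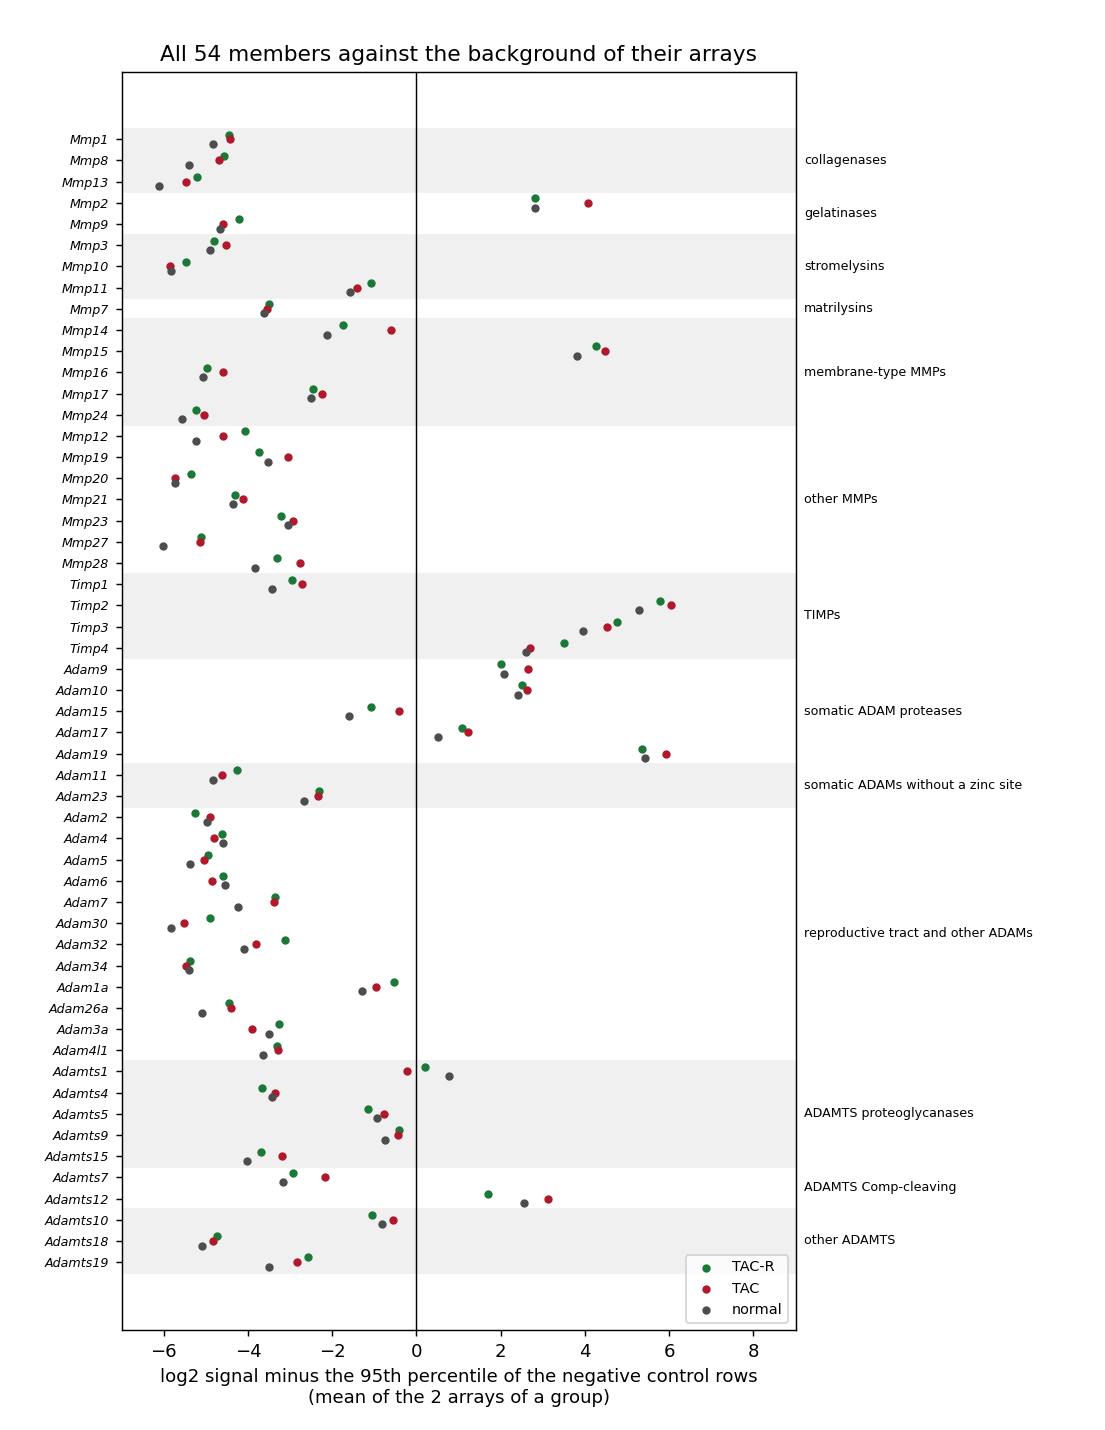
Mean log2 signal of each of the 54 genes minus the floor (95th percentile of the negative control rows of the same array), with 1 point per group of 2 arrays (TAC-R green, TAC red, normal grey) and subfamilies named at the right. Points to the right of 0 are above background; 43 genes lie to the left of 0 in all groups.

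The genes below the floor included 9 MMP genes that neighbour each other on chromosome 8, namely Mmp13, Mmp12, Mmp3, Mmp1, Mmp10, Mmp8, Mmp27, Mmp20 and Mmp7. They code for collagenases (Mmp1, Mmp8, Mmp13), stromelysins (Mmp3, Mmp10), macrophage elastase (Mmp12), the tooth enamel protease enamelysin (Mmp20), matrilysin (Mmp7) and Mmp27. Their values lay between 2.21 and 4.93 on the 6 arrays. The 100 bases before the start of 7 of them, from RefSeq, are shown. All 7 hold a TATA element close to the start and 6 of them, all but Mmp8, an AP-1 element as well. Mmp20 is not shown, and its promoter also holds a TATA element but no AP-1 element within 250 bases. Capitals mark the AP-1 element TGACTCA, to which Fos and Jun bind, and the TATA element TATAAA, each searched on both strands with no overlap between them, so that TGAGTCA and TTTATA are matches on the other strand.
Mmp13, GRCr8 chr8:12782729-12782828, plus strand: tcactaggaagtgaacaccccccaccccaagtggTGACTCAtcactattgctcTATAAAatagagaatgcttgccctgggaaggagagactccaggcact
Mmp12, GRCr8 chr8:12866552-12866651, plus strand: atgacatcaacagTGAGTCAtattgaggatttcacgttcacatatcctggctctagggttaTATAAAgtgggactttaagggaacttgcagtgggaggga
Mmp3, GRCr8 chr8:12925181-12925280, plus strand: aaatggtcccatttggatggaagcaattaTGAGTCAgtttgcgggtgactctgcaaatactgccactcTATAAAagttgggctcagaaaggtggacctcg
Mmp1, GRCr8 chr8:12943353-12943452, plus strand: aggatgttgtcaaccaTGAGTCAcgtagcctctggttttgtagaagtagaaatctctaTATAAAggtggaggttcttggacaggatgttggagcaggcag
Mmp10, GRCr8 chr8:12974607-12974706, plus strand: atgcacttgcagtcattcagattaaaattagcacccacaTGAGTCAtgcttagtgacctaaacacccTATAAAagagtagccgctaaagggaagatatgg
Mmp8, GRCr8 chr8:13008790-13008889, plus strand: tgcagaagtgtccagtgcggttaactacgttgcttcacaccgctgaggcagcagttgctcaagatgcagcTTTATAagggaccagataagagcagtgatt
Mmp7, GRCr8 chr8:13132943-13133042, plus strand: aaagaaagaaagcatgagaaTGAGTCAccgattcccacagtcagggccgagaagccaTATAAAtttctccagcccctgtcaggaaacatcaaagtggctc

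In these windows the AP-1 element began between 61 and 87 bases before the start in 6 of the 7 genes, and Mmp8 had none within 250 bases. Promoters of 36 of the 54 genes were matched in the RefSeq table, and 7 of those 36 held the AP-1 element in the 250 bases before the start, the seventh being Adam19, a sheddase. The same element stood in 4.05% of 33469 rat promoters of that length. The TATA element stood in 15 of the 36 promoters, against 12.9% of all, and those 15 included the 7 genes shown and their neighbour Mmp20. Neighbouring genes of 1 family can share sequence by descent, so these promoters are not separate observations. A match describes the letters of the promoter and not the binding of a factor in these hearts.

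The comparison of hearts released from TAC with hearts still under it asked whether protease transcripts differ once the load is removed. Adamts12 fell in TAC-R hearts, and it was the gene of the 54 that passed the test. Mmp2 was lower on both TAC-R arrays than on both TAC arrays, but its difference did not pass, and neither did that of any TIMP. Limma called 1 of 54 genes at a Benjamini-Hochberg adjusted p under 0.05, where 0.431% of all 23188 rows were called, 0.224% higher and 0.207% lower. At an unadjusted p under 0.05 there were 11 of 54 genes, 3 higher and 8 lower, against 11% of all rows, 4.79% higher and 6.2% lower. A fitted difference of 2-fold or more as well was found for 3 of the 54 genes, against 1.97% of all rows, and of these Mmp14 was below the floor, so that the size of its difference is not measured. The 2 TAC-R arrays lay on 1 side of both TAC arrays for 25 genes, 10 higher and 15 lower, against 40.5% of all rows, 20.1% higher and 20.4% lower. The median difference over the 54 genes was -0.07, against 0.0045 over all rows.

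Adamts12 codes for a secreted protease that cuts cartilage oligomeric matrix protein. Its signals were 10.03 and 9.64 in TAC-R hearts, against 11.17 and 11.40 in TAC hearts and 11.04 and 11.08 in normal hearts. Both TAC-R arrays were below all other arrays, and the TAC and normal arrays lay close together. The mean was 9.83 ± 0.28 in TAC-R hearts against 11.29 ± 0.16 in TAC hearts (SD, n = 2 each). Adamts12 fell by 1.45 ± 0.23 log2 units (difference ± SE of the limma model), or 2.74-fold, relative to TAC hearts (adjusted p = 0.0436). Leaving out any of the 6 arrays, the normal ones included, ended the call, with an adjusted p between 0.104 and 0.279 in limma and a fall between 1.26 and 1.65 log2 units. Against normal hearts the difference was -1.23 ± 0.23, which did not pass (adjusted p = 0.137 in limma), and that comparison shares the TAC-R arrays. Adamts7, which cuts the same substrate, lay in the background, at 5.27 and 5.14 in TAC-R hearts and 6.09 and 5.93 in TAC hearts.

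The promoter of Adamts12 is shown as that of the single called gene, and the promoter of Adamts1, described further down, as that of the gene with the smallest p against normal hearts under TAC. Both are the 250 bases before the start, from RefSeq, with the AP-1 element, the TATA element and the GC box GGGCGG, a binding element of Sp1, in capitals.
Adamts12, GRCr8 chr2:61759737-61759986, plus strand: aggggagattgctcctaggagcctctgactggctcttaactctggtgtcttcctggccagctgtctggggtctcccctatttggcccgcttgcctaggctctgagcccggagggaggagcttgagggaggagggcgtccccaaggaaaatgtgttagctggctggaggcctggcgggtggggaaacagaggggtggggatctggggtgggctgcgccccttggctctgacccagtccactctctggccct
Adamts1, GRCr8 chr11:38427385-38427634, minus strand: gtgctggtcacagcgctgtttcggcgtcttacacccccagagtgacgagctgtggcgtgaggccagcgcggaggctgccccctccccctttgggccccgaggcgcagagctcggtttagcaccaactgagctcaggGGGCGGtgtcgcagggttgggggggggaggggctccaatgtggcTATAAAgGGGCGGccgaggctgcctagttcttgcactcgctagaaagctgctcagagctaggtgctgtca
The Adamts12 window held none of the 3 elements, and the Adamts1 window held a TATA element and a pair of GC boxes. The GC box stood in 30.5% of all rat promoters of this length and in 15 of the 36 matched here.

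Among the gelatinases, Mmp2, which cuts denatured collagen and basement membrane collagen, was above the floor on all arrays, though above the 99th percentile of the negative controls on 1 TAC array only. Its signals were 11.18 and 10.73 in TAC-R hearts, 12.35 and 12.15 in TAC hearts and 11.38 and 11.25 in normal hearts. Both TAC arrays were above all others, and both TAC-R arrays were below the normal arrays. The difference of TAC-R from TAC hearts was -1.29 ± 0.24 log2 units, a ratio of 2.45-fold, and did not pass (adjusted p = 0.07 in limma). It did pass with an intensity trend in the moderation (adjusted p = 0.00377) or with rows below the median row mean left out (adjusted p = 0.0307). Mmp9, the gelatinase of neutrophils, was in the background on every array, at 3.69 and 4.15 in TAC-R hearts, 3.63 and 3.51 in TAC hearts and 3.95 and 3.69 in normal hearts. The 10 measured neutrophil markers, S100a8 and S100a9 among them, were all below the floor on all 6 arrays.

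Of the 5 membrane-type MMPs, Mmp15 was the one above the floor. Mmp14, the activator of pro-Mmp2, had 6.42 and 6.36 in TAC-R hearts, 7.77 and 7.36 in TAC hearts and 6.50 and 6.25 in normal hearts. Both TAC arrays were above the other 4, yet all 6 values were below the floor. The difference of TAC-R from TAC was -1.18 ± 0.23 (adjusted p = 0.0951 in limma), and its size is not measured. Mmp15 had 12.64 and 12.17 in TAC-R hearts, 12.65 and 12.65 in TAC hearts and 12.38 and 12.23 in normal hearts, so the groups lay close together, and the TAC-R difference from TAC was -0.25 ± 0.23 (adjusted p = 0.761 in limma). Mmp16, Mmp17 and Mmp24 had signals in the background.

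**Figure D2:**
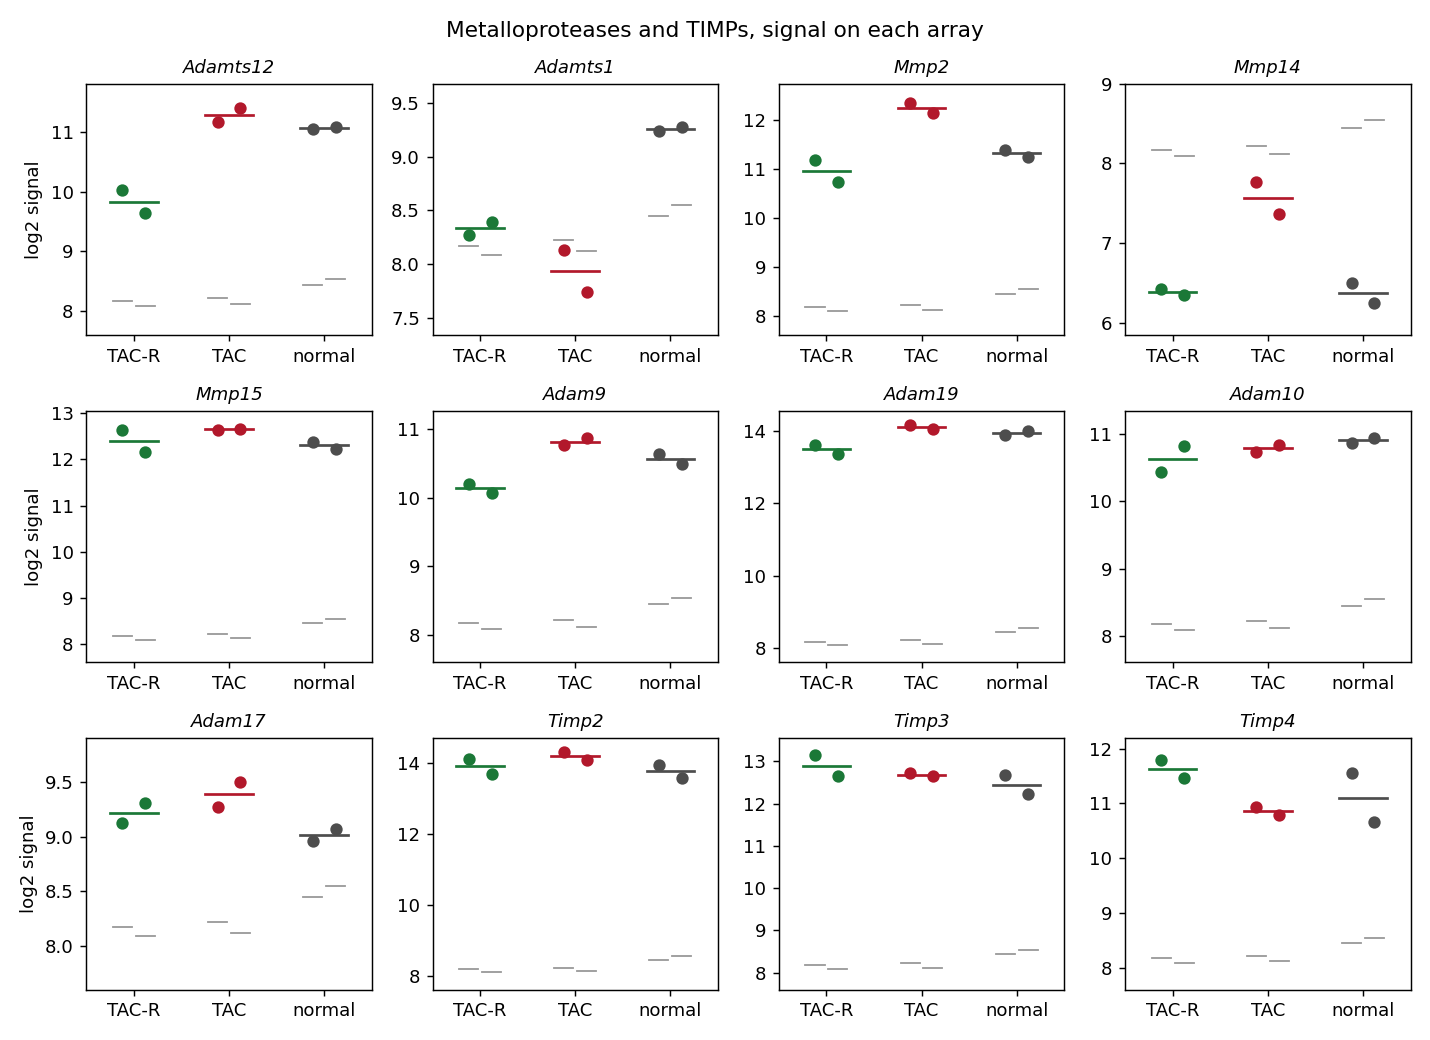
Log2 signal of 12 genes on each array (points), with the group mean as a coloured line and the floor of each array as a short grey line, for TAC-R, TAC and normal hearts from left to right. Each panel has its own vertical scale, which does not start at 0. Adamts12 is low on both TAC-R arrays, Mmp2 and Mmp14 are high on both TAC arrays, and Adamts1 is high on both normal arrays.

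Of the 19 Adam genes, 4 were above the floor on every array, all of them among the 5 somatic ADAM proteases. Of all tested rows, between 23.4% and 27.5% were above the floor on an array. Adam9, which is widely expressed, had 10.20 and 10.08 in TAC-R hearts, 10.77 and 10.87 in TAC hearts and 10.64 and 10.50 in normal hearts. Adam19, which sheds neuregulin and is needed for normal heart valve and septum formation in mice, had 13.60 and 13.37 in TAC-R hearts, 14.16 and 14.06 in TAC hearts and 13.87 and 13.99 in normal hearts. For both genes the TAC-R arrays were the lowest and the TAC arrays the highest. The differences of TAC-R from TAC were -0.68 ± 0.21 for Adam9 and -0.62 ± 0.21 for Adam19 and did not pass (adjusted p = 0.265 and 0.33 in limma).

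The 2 best known sheddases varied little. Adam10, the main sheddase of Notch receptors and cadherins, had 10.45 and 10.82 in TAC-R hearts, 10.74 and 10.85 in TAC hearts and 10.87 and 10.95 in normal hearts. Adam17, the enzyme that releases tumour necrosis factor, had 9.12 and 9.31 in TAC-R hearts, 9.27 and 9.50 in TAC hearts and 8.96 and 9.07 in normal hearts. TAC-R and TAC arrays overlapped for both. The TAC-R minus TAC difference was -0.16 ± 0.22 for Adam10 and -0.17 ± 0.22 for Adam17 (adjusted p = 0.847 and 0.826 in limma). The remaining somatic protease Adam15, the 2 somatic ADAMs that lack the zinc site (Adam11 and Adam23) and the 12 ADAMs known mainly from the reproductive tract or of other kinds lay in the background on every array, and none was called in any comparison.

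Of the TIMPs, Timp2, Timp3 and Timp4 were above the floor on all arrays, and Timp1 was in the background. Timp4, the family member most restricted to heart muscle, had 11.79 and 11.47 in TAC-R hearts, 10.93 and 10.79 in TAC hearts and 11.55 and 10.65 in normal hearts. Both TAC-R arrays were above both TAC arrays, while the normal arrays spanned most of the range. The difference of TAC-R from TAC was 0.77 ± 0.31 and did not pass (adjusted p = 0.404 in limma). Timp2, which inhibits Mmp2 and also takes part in its activation, had 14.12 and 13.71 in TAC-R hearts, 14.31 and 14.09 in TAC hearts and 13.96 and 13.59 in normal hearts. Timp3, which is bound to the matrix and inhibits Adam17 and the ADAMTS enzymes, had 13.15 and 12.64 in TAC-R hearts, 12.73 and 12.65 in TAC hearts and 12.68 and 12.22 in normal hearts. For Timp2 and Timp3 the TAC-R and TAC arrays overlapped. Timp2 differed by -0.29 ± 0.25 and Timp3 by 0.21 ± 0.26 (adjusted p = 0.73 and 0.823 in limma). Timp1 lay between 4.87 and 5.50 on all arrays.

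Mmp2 and its inhibitor Timp2, neither of which passed in any comparison, were also set against each other within each array, a pair chosen after their values were seen. The log2 signal of Mmp2 minus that of Timp2 was -2.94 and -2.98 in TAC-R hearts, -1.97 and -1.94 in TAC hearts and -2.58 and -2.33 in normal hearts. The 3 groups did not overlap, and TAC-R was lower than TAC by 1.00 log2 units, with a difference of 0.50 between TAC and normal hearts. An exact two-sided permutation test gave p = 0.33 for each, the smallest that 2 arrays against 2 can give. Only differences of this value between groups can be read, since each gene has its own probes.

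**Figure D3:**
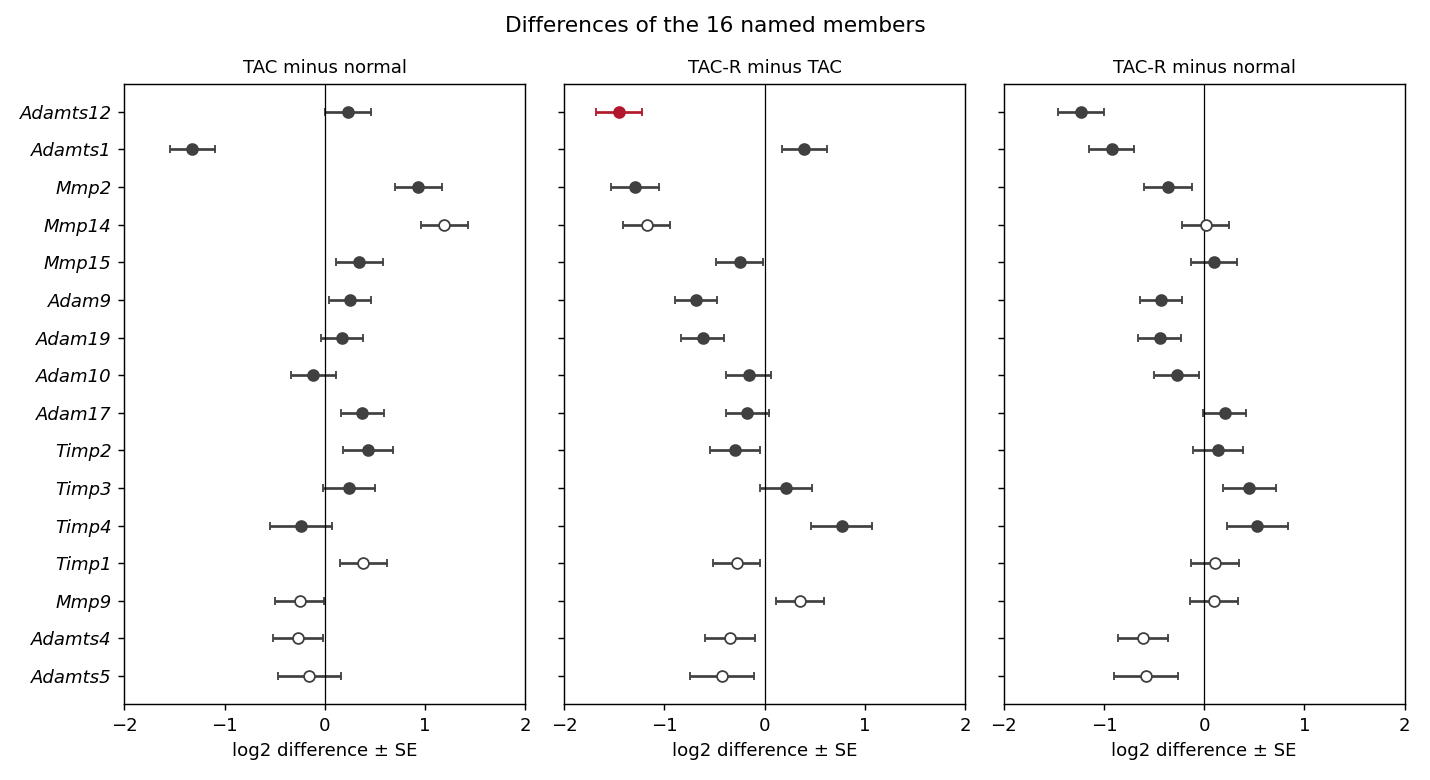
Log2 difference (points) and SE of the limma model (bars) of 16 genes for TAC minus normal, TAC-R minus TAC and TAC-R minus normal. Red marks the single call, Adamts12 in TAC-R minus TAC, and open points mark genes below the floor in both groups, where the size is not measured. Adamts1 is drawn filled, but both TAC arrays were below the floor. The sizes of its TAC minus normal and TAC-R minus TAC differences are therefore not measured either.

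The comparison of TAC hearts with normal hearts asked which protease transcripts differ under load. None of the 54 genes passed the test in limma, where 0.254% of all rows were called, 0.19% higher and 0.0647% lower. An unadjusted p under 0.05 was found for 7 genes, 4 higher and 3 lower, against 10.3% of all rows, 5.43% higher and 4.89% lower, and 2 of them had a fitted difference of 2-fold or more, against 1.52% of all rows. These were Adamts1 and Mmp14, the second of which was below the floor in both groups, so that its size is not measured. The TAC arrays lay on 1 side of both normal arrays for 27 genes, 15 higher and 12 lower, against 43.3% of all rows, 21.9% higher and 21.3% lower. The median difference was 0.02. The smallest p was that of Adamts1, a secreted protease of the proteoglycans aggrecan and versican. Adamts1 had 8.27 and 8.39 in TAC-R hearts, 8.13 and 7.74 in TAC hearts and 9.24 and 9.28 in normal hearts. Both normal arrays were the highest, and both TAC arrays were below the floor. The difference did not pass (adjusted p = 0.079 in limma), with mean signals of 7.94 ± 0.28 in TAC and 9.26 ± 0.03 in normal hearts (SD, n = 2 each). With the TAC signals replaced by the floor of their arrays, the normal signals were 2.13-fold higher on these arrays. This value is a lower bound for these arrays only, and it depends on the floor. Under the stricter 99th percentile floor, Adamts1 counted as background in every group, which leaves no bound. Adamts1 passed with an intensity trend (adjusted p = 0.0162) or with rows below the median row mean left out (adjusted p = 0.0352).

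Of the genes above the floor, Mmp2 was the one with the largest higher value under TAC, with a difference of 0.93 ± 0.24 from normal hearts (adjusted p = 0.251 in limma). Mmp14, which stayed below the floor, differed by 1.19 ± 0.23 (adjusted p = 0.123 in limma). Adam17 and Timp2 differed by 0.37 ± 0.22 and 0.43 ± 0.25, and their TAC arrays were above both normal arrays (adjusted p = 0.58 for both in limma). Timp4 differed by -0.24 ± 0.31, with overlapping arrays. The other proteoglycanases were in the background. Adamts4 had 5.07 and 4.54 in TAC hearts against 4.95 and 5.20 in normal hearts, and Adamts5 had 7.86 and 6.95 against 7.65 and 7.47. In both genes the TAC arrays spread more widely than the normal ones. Adamts9 and Adamts15 were in the background as well, and Adamts2, the procollagen N-proteinase looked for by name, had no named row.

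The comparison of TAC-R hearts with normal hearts asked which protease transcripts differ from normal after release. None of the 54 genes passed in limma, where 0.0906% of all rows were called, 0.0604% higher and 0.0302% lower. An unadjusted p under 0.05 was found for 8 genes, 3 higher and 5 lower, against 10.7% of all rows, 5.36% higher and 5.32% lower, and 1 of them, Adamts12, had a fitted difference of 2-fold or more, against 1.43% of all rows. The TAC-R arrays lay on 1 side of both normal arrays for 26 genes, 11 higher and 15 lower, against 40.9% of all rows, 20.6% higher and 20.3% lower. The median difference was -0.02. Adamts12 had the smallest p, as given above. Adamts1 followed with a difference of -0.92 ± 0.23, or 1.90-fold, all 4 arrays being above the floor (adjusted p = 0.246 in limma). Mmp2 differed by -0.36 ± 0.24, Adam19 by -0.44 ± 0.21 and Adam9 by -0.43 ± 0.21 (adjusted p = 0.614, 0.505 and 0.508 in limma). The Mmp2 value ranged from -0.59 without the first TAC-R array to -0.14 without the second. The 4 TIMPs had differences between 0.11 and 0.53, the lowest adjusted p being 0.575 in limma. For each TIMP the TAC-R and normal arrays overlapped.

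Fibroblasts make much of the cardiac matrix. The mean level of their markers was highest on the TAC arrays and lowest on the TAC-R arrays. Mmp2 had this order, and other marker lists given below shared part of it. Of the single fibroblast markers, Pi16 was highest in TAC-R hearts and Gsn in normal hearts. The mean log2 level of the 10 measured fibroblast markers lay between 10.08 and 10.45 on the TAC-R arrays, at 11.28 and 11.29 on the TAC arrays and between 10.65 and 10.80 on the normal arrays. Of the 10, 2 fell in TAC-R relative to TAC hearts (Col1a2 and Col3a1) and 0 rose, where 0.207% of all rows were called lower and 0.224% higher. Of the same 10, 6 were above the floor on all arrays, and Tcf21 and Pi16 were below it on all. The 9 smooth muscle and pericyte markers gave 8.98 to 9.40, 9.83 to 9.99 and 9.27 to 9.28 in TAC-R, TAC and normal hearts, and the 8 endothelial markers gave 9.83 to 10.26, 10.51 to 10.66 and 10.46 to 10.56. The smooth muscle and pericyte mean was thus also highest on the TAC arrays, and the endothelial mean also lowest on the TAC-R arrays. The 12 macrophage and monocyte markers gave 6.56 to 6.64, 6.85 to 6.94 and 6.28 to 6.49, with 9 of the 12 below the floor on all arrays. Atrial muscle markers stood apart on the TAC-R arrays, at 10.70 and 8.45 on the 2 arrays against 5.94 to 5.99 on the TAC arrays and 6.63 to 6.98 on the normal arrays. The 7 measured red cell markers gave 12.16 to 12.38 in TAC-R hearts, 13.50 to 13.62 in TAC hearts and 11.39 to 11.63 in normal hearts. Of the 7, 5 were called higher in TAC than normal hearts (0.19% of all rows) and 3 lower in TAC-R than TAC hearts (0.207%). Against normal hearts, 1 was called higher in TAC-R hearts (0.0604%). Of 4 atrial markers, Myl7 was called higher in TAC-R than TAC and normal hearts (adjusted p = 0.00315 and 0.0105 in limma). Below the floor, Cnn1 of smooth muscle was called higher in TAC than normal hearts. Epicardial Tbx18, also below it, was called lower in TAC-R than TAC hearts. The part of any of these in the values of Adamts12, Mmp2 or the other proteases was not tested, and in whole hearts fewer cells of a type and less RNA per cell cannot be told apart.

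**Figure D4:**
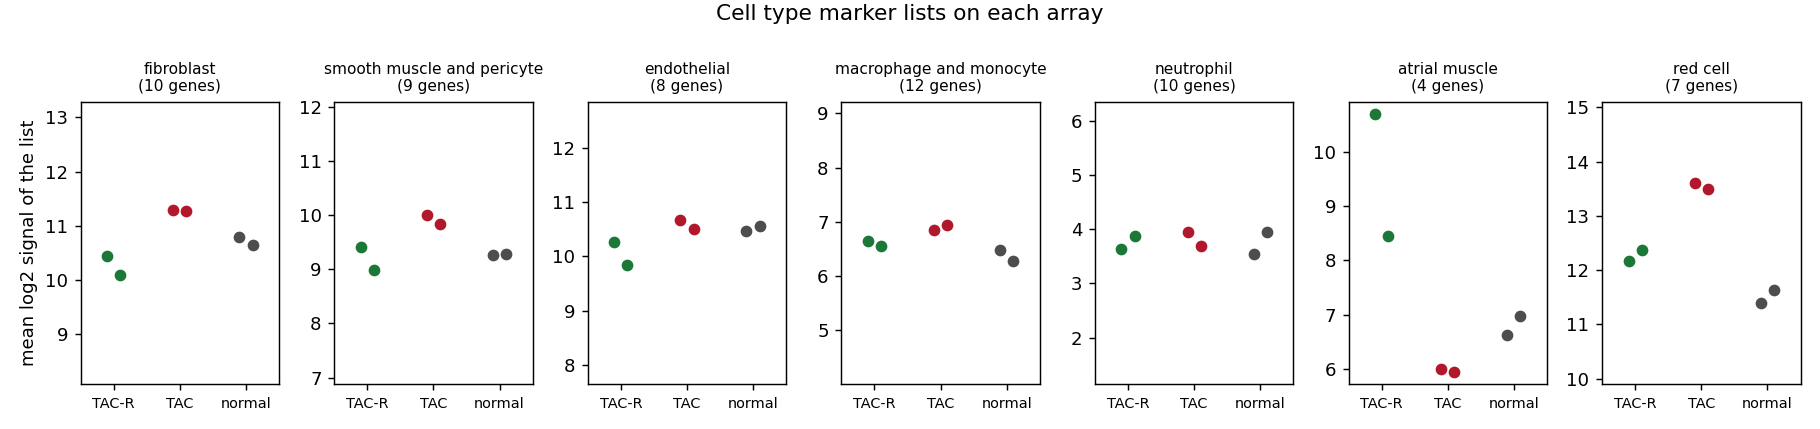
Mean log2 signal of 7 lists of cell type markers on each array (points), for TAC-R, TAC and normal hearts from left to right; all panels span the same number of log2 units, and none starts at 0. The mean of the fibroblast markers is highest on the TAC arrays and lowest on the TAC-R arrays, that of the neutrophil markers lies near 4 log2 units on every array, and that of the atrial markers is highest on the TAC-R arrays.

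Other genes around these proteases were taken from 8 lists. The matrix proteins they cut were the list with calls: of 21 measured, 3 fell in TAC-R relative to TAC hearts, 0 rose, and 0 were called in either comparison with normal hearts. Of all rows, 0.207% were called lower and 0.224% higher in TAC-R relative to TAC hearts. Col3a1, a chain of fibrillar collagen, had 12.85 and 12.39 in TAC-R hearts, 14.46 and 14.22 in TAC hearts and 13.26 and 13.37 in normal hearts, and it fell by 1.72 relative to TAC hearts (adjusted p = 0.0269 in limma). In the same comparison Col1a2 fell by 1.66 (adjusted p = 0.0469 in limma). The gene of fibronectin, Fn1, fell by 1.78 (adjusted p = 0.0496 in limma). The median difference of the list was -0.92 between TAC-R and TAC hearts and 0.29 between TAC and normal hearts. Col1a2 and Col3a1 are also among the fibroblast markers above.

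None of the genes in the other 7 lists was called in any comparison. Among 16 activators and members of the plasmin system, the proprotein convertase gene Pcsk6 had 9.90 and 9.77 in TAC-R hearts, 10.53 and 10.94 in TAC hearts and 10.60 and 10.49 in normal hearts, a difference of -0.90 from TAC (adjusted p = 0.184 in limma). Bsg, the inducer of MMPs also called Emmprin, lay between 13.71 and 14.34 on all arrays. Among 11 other inhibitors and clearance receptors, the serpin gene Serpine2 had 8.54 and 8.32 in TAC-R hearts, 9.68 and 9.48 in TAC hearts and 9.01 and 8.94 in normal hearts, a difference of -1.15 from TAC (adjusted p = 0.0768 in limma). Serpinf1, another serpin gene, differed by 0.96 between TAC and normal hearts (adjusted p = 0.209 in limma). Among 11 metalloproteases of other families, Bmp1, the procollagen C-proteinase, had 7.38 and 6.82 in TAC-R hearts, 8.29 and 8.37 in TAC hearts and 6.85 and 7.40 in normal hearts. The TAC arrays were the 2 above the floor for Bmp1, so the sizes of its differences are not measured. Ece1, the endothelin-converting enzyme, differed by -0.77 between TAC-R and TAC hearts (adjusted p = 0.315 in limma).

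Among 23 proteins shed by ADAMs, the ephrin gene Efnb2 differed by -1.09 and vascular cadherin, Cdh5, by -0.98 between TAC-R and normal hearts (adjusted p = 0.231 and 0.314 in limma). Among 12 partners of ADAMs, Dlg1 differed by 0.59 between TAC-R and TAC hearts and Sh3pxd2a by -0.73 between TAC-R and normal hearts (adjusted p = 0.342 and 0.422 in limma). Of 5 collagen receptors, Ddr2 differed by -1.03 between TAC-R and TAC hearts and the integrin gene Itga1 by -0.73 between TAC and normal hearts (adjusted p = 0.178 and 0.476 in limma). Of 3 ADAMTS-like genes, Adamtsl4 differed by -0.49 between TAC-R and TAC hearts (adjusted p = 0.428 in limma).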

How the data were processed

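Whole-heart RNA was measured on 6 arrays. The authors deposited 1 log2 signal per transcript, an RMA (robust multi-array average) value at core-exon level from Expression Console, per the labels, with no version stated. These log2 values were tested as deposited. Because RMA equalises the distributions of arrays, it would hide a change common to most transcripts. Array medians lay between 5.31 and 5.39. Of 24834 rows, 1646 controls were left out. Of the 23188 tested, 15049 had 1 gene symbol and 8139 had none.

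Differences were fitted with limma 3.58.1 in R 4.3.3 to all 6 arrays, with 1 mean per group and 3 residual degrees of freedom, and p-values were adjusted by Benjamini-Hochberg over all tested rows. The procedure was run on simulated data with added differences larger than any found for the 54 genes. That run does not show whether smaller differences can be called. Genes described one by one were those called, the Timps, Mmp2, Mmp9, Mmp14, Adam10, Adam17, Adamts1, Adamts2, Adamts4 and Adamts5, and in each comparison the 10 with the largest difference among those above background. Other genes are given by range and count, or were named after their values were seen (Adam15, Adamts7, Mmp12, Mmp19). From each list of related genes, those called and the 2 with the largest difference above background were named. Genes, lists and tests were chosen with earlier results of these data known. The number of arrays, 2 a group, limits the precision. Other moderation, row filters, scaling, call rules, a replicate block and left-out arrays were tried.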

Additional observations from a re-analysis of the deposited data

How the results depend on the processing

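With an intensity trend in limma, 2 of the 54 genes were called for TAC minus normal (Adamts1 and Mmp2), 3 for TAC-R minus TAC (Adamts12, Mmp2 and Mmp14) and 1 for TAC-R minus normal (Adamts12), and 170, 344 and 156 of all rows. Leaving out rows below the median row mean left 11594 rows to adjust over. It gave 1, 3 and 0 genes for TAC minus normal, TAC-R minus TAC and TAC-R minus normal, and 87, 187 and 68 rows. Calling by an unadjusted p under 0.05 and at least a 2-fold difference gave 2, 3 and 1 genes and 353, 456 and 331 rows. Adamts12 lost its call with only the 2 groups in the fit, with control rows kept in and with the replicate number as a block (adjusted p = 0.107, 0.0807 and 0.0954 in limma). These settings gave 0 genes for TAC-R minus TAC. At an unadjusted p under 0.05 they gave 11, 10 and 10 genes there, against 2360, 2554 and 2435 rows. These settings called 35, 39 and 36 rows for TAC minus normal, 37, 44 and 47 for TAC-R minus TAC and 12, 10 and 11 for TAC-R minus normal. TAC-R minus normal had 37 rows without those at the ceiling and 54 after median centring. Leaving out 1 array in turn ended the single call, as given for Adamts12 above. Those fits leave 1 array in a group, so no counts are given for them. The cause of these changes was otherwise not tested. Same-numbered arrays did not deviate together (correlations of deviations from -0.01 to 0.01), so the block is not taken as a pairing.

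The count of genes above background was 11 with the 95th percentile of the negative controls, 4 with the 99th (Timp2, Timp3, Adam19 and Mmp15) and 33 with their median. Small uncalled differences changed sign when 1 array was left out. For TAC-R minus TAC the ranges were -0.35 to 0.030 for Adam10, -0.88 to 0.030 for Adamts5 and -0.044 to 0.47 for Timp3. For TAC minus normal they were -0.61 to 0.30 for Adamts5 and -0.69 to 0.21 for Timp4. For TAC-R minus normal they were -0.11 to 0.14 for Mmp14, -0.14 to 0.33 for Mmp15, -0.13 to 0.33 for Mmp9, -0.083 to 0.30 for Timp1 and -0.068 to 0.34 for Timp2. Of 711 repeats of 48 single-gene differences, 14 reversed direction. Many settings, such as those that change only the moderation or the rows tested, leave the difference itself unchanged, so its direction could not change. The single called difference, that of Adamts12, lost its call in several settings, as given above. Each gene had 1 row, so averaging rows of a gene changed nothing.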

Other observations

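Some of the genes below the floor had arrays of a group on 1 side of the others. They were chosen after their values were seen, and how far they differ cannot be measured. How many genes or rows show such a pattern was not counted. Between 2 groups alone, arrays did not overlap for 43.3% of all rows in TAC minus normal. The share was 40.5% in TAC-R minus TAC and 40.9% in TAC-R minus normal. Adam15, a membrane protease of endothelial and other cells, had 7.41 and 6.70 in TAC-R hearts, 7.72 and 7.79 in TAC hearts and 7.26 and 6.51 in normal hearts, so both TAC arrays were the highest (TAC minus normal, adjusted p = 0.413 in limma). Mmp19 had 4.35 and 4.43 in TAC-R hearts, 5.32 and 4.94 in TAC hearts and 4.96 and 4.97 in normal hearts, both TAC-R arrays being the lowest (TAC-R minus TAC, adjusted p = 0.26 in limma). Mmp12, the macrophage elastase, had 4.08 and 4.05 in TAC-R hearts, 3.44 and 3.73 in TAC hearts and 3.13 and 3.42 in normal hearts (TAC-R minus normal, adjusted p = 0.305 in limma). Its TAC-R arrays were the highest.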
